A study of Mus musculus with 6 samples.

Results

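NF-kB is a family of transcription factors that switch on inflammatory genes, and 10 genes of its subunits, feedback inhibitors and upstream activators were followed here in sorted brain border macrophages of young and aged mice. The genes were chosen by symbol: the subunits Nfkb1, Nfkb2, Rel, Rela and Relb, the inhibitors Nfkbia, Nfkbiz and Tnfaip3, and the upstream adaptor and kinase Myd88 and Ikbkb. All 10 were found among the 35598 gene identifiers of the series, each under a single identifier, and all 10 had enough reads to be tested.

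In resting macrophages the NF-kB dimers are held in the cytoplasm by inhibitor (IkB) proteins. Signals from Toll-like and interleukin 1 receptors pass through the adaptor MyD88 to the IkB kinase, which marks the inhibitor for destruction, so that the dimers enter the nucleus. Among the genes they then switch on are those of their own inhibitors, which end the response.

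The cells were CNS-associated macrophages (CAMs), which line the borders of the brain, around its vessels, in the meninges and in the choroid plexus. They were sorted as CD3-CD11b+CD45+CD206+ cells from brains of male C57BL/6 mice and profiled by RNA sequencing, with 3 libraries from mice aged 2 months (young) and 3 from mice aged 18 months (aged). The labels name no genetic change or treatment, and the series' title places the comparison in work on stroke in aged mice, although no stroke group was analysed here. Nothing in the labels ties the 3 libraries of an age to different mice, so p-values here reflect only how much these libraries varied, which may be technical.

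The libraries held 26605079 to 33306121 counts. Each of 14 CAM marker genes, Mrc1 (CD206) and Pf4 among them, was detected in every library. Their summed level was 26614.5 to 30516 CPM (counts scaled to library size with TMM factors) in young and 9289 to 18581 CPM in aged libraries. The summed level of 13 microglia markers, none at 0 in any library, was 6007 to 8568 CPM in young and 11325 to 19155 CPM in aged libraries. Neutrophil markers (14 genes, Elane at 0 throughout) summed to 12090 to 37866 CPM in young libraries and to 21660, 8049 and 25.8 CPM in aged replicates 1, 2 and 3. Erythroid markers (10 genes) summed to 10106 to 30477 CPM in young libraries and to 9863, 9096 and 153 CPM in aged replicates 1, 2 and 3. Choroid plexus markers (10 genes) reached 11899 CPM in young replicate 3 and 8184 CPM in aged replicate 3, and stayed at or under 1381 CPM in the other libraries. Dendritic cell markers (10 genes, Clec9a at 0 throughout) summed to 264 to 990 CPM in young and 618 to 1197 CPM in aged libraries.

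Genes that NF-kB switches on often carry kB motifs near their start, and the promoter stretches that hold such a motif are shown for 4 members. The RefSeq table of promoters (GRCm38.p6, the same assembly as mm10, 250 bases before to 50 bases after a transcript start) held 6 of the 10 members: Nfkb2, Rel, Rela, Nfkbia, Tnfaip3 and Myd88. Both strands were searched for the kB motif, the 10-base consensus that NF-kB dimers bind. It was found in 4 of these 6 members, against 5.14% of the 27025 genes in the table and 6.07% of the 8199 tested genes in it. Each sequence below runs 5′ to 3′ on the strand of its gene and ends before the transcript start, with the matches, on either strand, in capitals. Nfkbia and Tnfaip3 stand first because they encode the inhibitors that end the response.
Nfkbia (chr12:55492648-55492696, minus strand): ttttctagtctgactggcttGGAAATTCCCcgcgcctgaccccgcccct
Tnfaip3 (chr10:19015411-19015555, minus strand): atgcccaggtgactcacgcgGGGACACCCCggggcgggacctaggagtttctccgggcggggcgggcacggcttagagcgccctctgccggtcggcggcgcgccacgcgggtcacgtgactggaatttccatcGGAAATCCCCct
Rel (chr11:23771031-23771081, minus strand): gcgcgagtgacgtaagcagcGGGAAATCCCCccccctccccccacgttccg
Nfkb2 (chr19:46304678-46304736, plus strand): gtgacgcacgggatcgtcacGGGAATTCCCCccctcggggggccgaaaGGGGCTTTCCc

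Nfkbia had 1 match, 19 bases before the start. Tnfaip3 had 2 separate matches, the nearer of them 2 bases before the start. In Rel, 3 overlapping matches formed a single block, 81 bases before the start. Nfkb2 had 2 separate blocks in the promoter shown and further matches in the windows of 2 other starts. In Rela and Myd88 these letters were not found in the window. A match describes the sequence and is not a measured binding site. The motif was also found in 12 of 26 genes of an NF-kB target list that had an entry, in 3 of 6 other IkB genes, and in 3 of 23 other kinase and adaptor genes.

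None of the 10 members passed the test for a difference by age. The comparison was edgeR's quasi-likelihood test of aged against young libraries, adjusted by Benjamini-Hochberg over all 10661 genes tested. It called 0 members at an adjusted p under 0.05, where 0.00938% of all genes were called (1 gene, higher). At an unadjusted p under 0.05 there were also 0 members, against 5.67% of all genes. Fitted log2 fold changes (aged minus young) were above 0 for 5 members and below 0 for 5, with a median of 0.01, beside -0.02 over all genes tested. The groups did not overlap for 2 members, Relb and Tnfaip3, both higher in aged libraries. Over all genes tested, 14.7% had groups that did not overlap, 7.54% with the aged libraries higher and 7.19% with them lower. Most members were at low levels, where these libraries scattered widely. Only Nfkbia averaged 50 CPM or more, and the biological coefficient of variation was 53.0% for Nfkbia and 62.7% for Nfkb1, but 132% for Relb and 140% for Tnfaip3. The median coefficient was 129% over tested genes that averaged less than 50 CPM and 48.2% over the others.

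**Figure D1:**
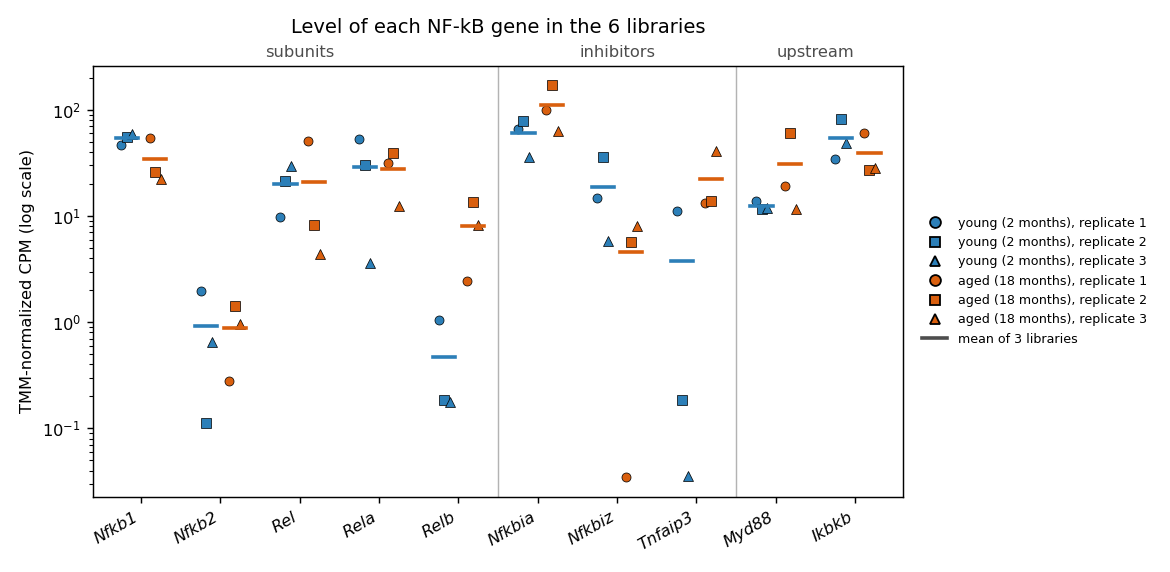
TMM-normalized CPM of the 10 NF-kB genes on a log axis in the 3 young (blue) and 3 aged (orange) libraries, 1 symbol per library, with the group mean as a bar. The aged symbols all lie above the young ones for Relb and Tnfaip3, and the groups overlap for the other 8 genes.

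To compare genes with each other, levels were taken per length, in TPM, which divides reads by transcript length before scaling to a common total. Nfkbia had the highest mean of the members, 47.4 TPM over the 6 libraries, with its highest value in aged replicate 2 (138 TPM). In young replicates 2 and 3 it was below Ikbkb. Ikbkb followed at 29.7 TPM, Rela at 10.3 TPM, Nfkb1 at 9.02 TPM, Myd88 at 6.38 TPM and Nfkbiz at 5.69 TPM. Tnfaip3 (1.95 TPM), Relb (1.68 TPM), Rel (1.23 TPM) and Nfkb2 (0.137 TPM) were at the lower end. The step from Ikbkb to Rela (5 of 6 libraries in that order) and the step from Rel to Nfkb2 (6 of 6 libraries) were larger than the spread of the log2(TPM + 1) difference over the libraries. No other pair of neighbours differed beyond its spread. Ikbkb was listed at 656 to 1207 bases, while protein-coding transcripts of up to 3977 bases are annotated for it. Its place in TPM therefore rests on that length as well as on its reads. In CPM, Ikbkb averaged 54.6 in the young and 38.9 in the aged libraries, close to Nfkb1 (54.0 and 34.2). Rela stood before Nfkb1 through aged replicate 2 and young replicate 1, and Nfkb1 was the higher of the pair in the other 4 libraries.

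Among the subunits, Relb differed most between the ages, from a very low start. Relb, the partner of p52 in the non-canonical arm of the pathway (mm10 chromosome 7, 19606217 to 19629438), was at 1.06, 0.186 and 0.179 CPM in young replicates 1, 2 and 3 and at 2.43, 13.6 and 8.20 CPM in aged replicates 1, 2 and 3. Its 2 groups did not overlap, but the young levels rested on 33, 5 and 5 counts. The mean was 0.474 ± 0.505 CPM (SD, n = 3) at 2 months and 8.07 ± 5.57 CPM (SD, n = 3) at 18 months, a log2 fold change of 4.08 (SE 1.93, 95% interval -0.26 to 8.41, edgeR adjusted p = 0.892). The DESeq2 Wald test called Relb higher (log2 fold change 4.06, SE 1.16, adjusted p = 0.0203), where it called 3.71% of all genes. Relb is known to be strongly expressed in dendritic cells. Of 10 dendritic cell markers, 4 had enough reads to be tested, and all 4 had fitted values above 0 (median 1.15). Over all genes tested, 5258 of 10661 had fitted values above 0. Batf3, a transcription factor of dendritic cells named here after its values were seen, was at 0, 0.484 and 0 CPM in the young and 22.4, 15.9 and 23.2 CPM in the aged libraries, with no overlap (edgeR adjusted p = 0.691). Because Batf3 was named after its values were seen, its separation is no test of a dendritic cell part in the Relb difference. The summed level of the list overlapped between the ages. Young replicate 3, the young library with the highest sum (990 CPM), had 5 Relb counts. Cd209a, the most abundant gene of the list, made up 935 CPM of that sum. Cd209a also overlapped between the ages, with 576 CPM in aged replicate 1. The part of other cells in the Relb difference was not tested. In bulk libraries such as these, a change in the number of cells of a type and a change in RNA per cell cannot be told apart.

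Nfkb2 encodes p100, the precursor of p52, and was the scarcest member. It was at 1.99, 0.112 and 0.644 CPM in the young and 0.278, 1.42 and 0.954 CPM in the aged libraries, from 3 to 62 counts. The groups overlapped, and the log2 fold change was -0.04 (SE 1.47, edgeR adjusted p = 0.998), a width that leaves the direction unknown. Nfkb2 overlaps Psd and AC114539.1 on the opposite strand. The reads carry no strand, and their counts exceeded those of Nfkb2 in 4 libraries (Psd in young replicate 2, aged replicate 1 and aged replicate 3, AC114539.1 in young replicate 3), so its level is uncertain.

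The canonical subunits were more abundant and did not separate the ages. Nfkb1, which encodes p105, the precursor of p50 (chromosome 3, 135584655 to 135691547), was at 46.9, 55.8 and 59.4 CPM in the young and 54.3, 26.0 and 22.3 CPM in the aged libraries. The young libraries lay close together, and aged replicate 1 lay within their range, while aged replicates 2 and 3 lay below it. The log2 fold change was -0.66 (SE 0.60, 95% interval -2.01 to 0.69, edgeR adjusted p = 0.993), -1.15 without aged replicate 1 and -0.42 without aged replicate 3. Rela, the main transactivating subunit p65 (chromosome 19, 5637483 to 5648130), ranged from 3.65 to 53.2 CPM within the young group alone. It was at 53.2, 30.4 and 3.65 CPM in the young and 31.8, 39.0 and 12.3 CPM in the aged libraries, with a log2 fold change of -0.07 (SE 0.99, 95% interval -2.29 to 2.16, edgeR adjusted p = 0.997). The lowest Rela values of each group were those of young replicate 3 and aged replicate 3, the 2 libraries with the most choroid plexus transcripts, whose part in the value was not tested.

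Rel, which encodes c-Rel, a subunit best known in lymphocytes and activated myeloid cells (chromosome 11, 23736847 to 23770970), had its highest and its lowest level in the same group. It was at 9.70, 21.5 and 29.4 CPM in the young and 50.7, 8.24 and 4.42 CPM in the aged libraries. The log2 fold change was 0.06 (SE 1.12, 95% interval -2.45 to 2.58, edgeR adjusted p = 0.997). Without aged replicate 1, which carried the high value, it was -1.67. T and NK cell markers (14 genes, Gzma, Klrb1c and Ncr1 at 0 throughout) summed to 163, 45.6 and 8.24 CPM in aged replicates 1, 2 and 3, in the order of Rel. In young replicates 1, 2 and 3 they summed to 44.3, 93.9 and 17.0 CPM, an order that Rel did not share. Cd4 alone made up 74.6 CPM of the sum of young replicate 2 and 16.1 CPM of that of young replicate 3. In aged replicate 1, which had the highest sum, Cd4 was at 6.81 CPM. The sort took CD3- cells, and 3 of the 14 genes had enough reads to be tested. The part of T and NK cells in the Rel values was not tested.

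**Figure D2:**
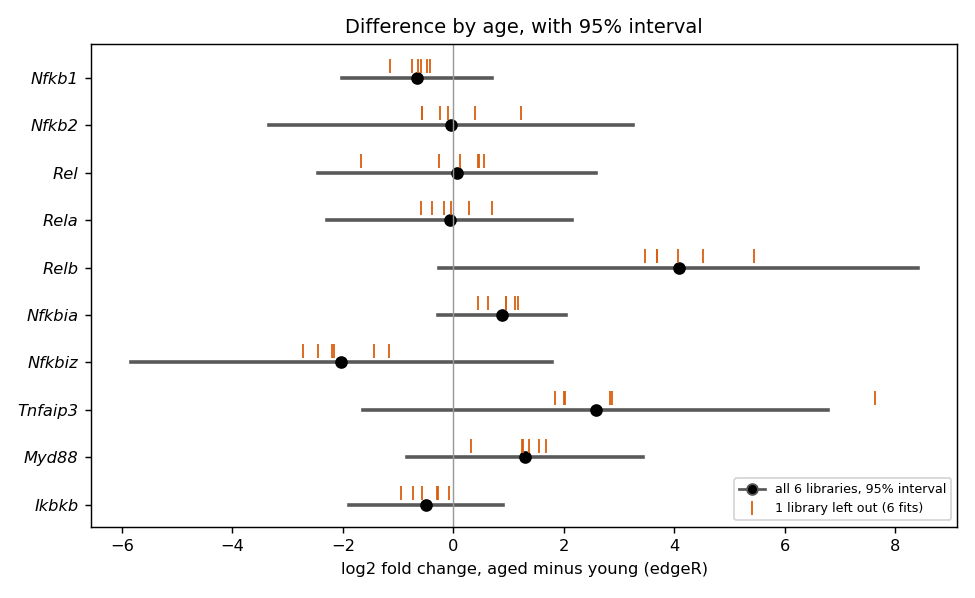
Log2 fold change (aged minus young) of each NF-kB gene from edgeR, as a black point with its 95% interval, and above it in orange the values of 6 fits that each left out 1 library. All 10 intervals include 0, and the values without 1 library fall on both sides of 0 for Nfkb2, Rel and Rela.

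The fitted values of the feedback inhibitors had both signs, and each 95% interval included 0. Nfkbia encodes IkB-alpha, the inhibitor that NF-kB itself restores within the response (chromosome 12, 55489410 to 55492647). Its level was 66.0, 78.7 and 35.9 CPM in the young and 99.4, 171 and 63.1 CPM in the aged libraries. Aged replicates 1 and 2 lay above all young libraries, and aged replicate 3 lay between them. The mean was 60.2 ± 22.0 CPM (SD, n = 3) at 2 months and 111 ± 54.6 CPM (SD, n = 3) at 18 months, with a log2 fold change of 0.88 (SE 0.52, 95% interval -0.28 to 2.04, edgeR adjusted p = 0.939). Aged replicate 2 had the highest level, and the log2 fold change was 0.44 without it. That library also had the highest summed microglia markers (19155 CPM) and the lowest summed CAM markers (9289 CPM), whose part in the value was not tested.

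On the TPM scale the Nfkbia groups separated. Nfkbia was at 22.8, 26.9 and 12.3 TPM in the young and 52.6, 138 and 31.8 TPM in the aged libraries, with no overlap, as for 10.1% of the 9351 genes averaging 1 TPM or more (3.89% separated with the aged libraries lower). The limma-trend test on log2(TPM + 1) gave a difference of 1.596 (SE 0.63, adjusted p = 0.520), on a scale where the median of all genes was 0.23. The deposited tables give a transcript length for each gene in each library, and TPM depends on it. For Nfkbia the reported length was 1407, 1458 and 1445 bases in the young and 1027, 1040 and 1081 bases in the aged libraries. The aged lengths were all shorter, 1049 ± 28.2 against 1437 ± 26.5 bases (SD, n = 3 each). The exact permutation p was 0.1 (two-sided), the smallest that 3 against 3 allows. The Nfkbia length was chosen for mention after it was seen to separate, which fixed this p, so the test adds nothing to the separation. Of all genes tested, 4.77% had shorter reported lengths in every aged library and 3.50% longer ones. The ratio of the longest to the shortest reported length over the 6 libraries was 1.42 for Nfkbia, beside a median of 1.52 over all genes tested.

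**Figure D3:**
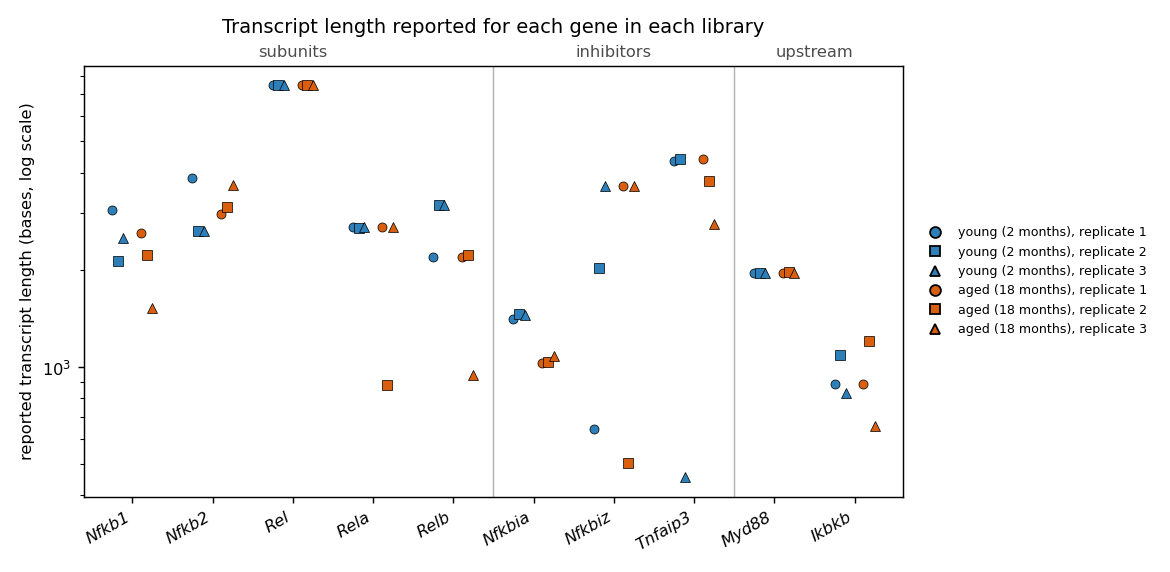
Transcript length reported in the deposited tables for each NF-kB gene in each library, in bases on a log axis, with young libraries in blue and aged ones in orange. The Nfkbia lengths form 2 separate groups by age, while Rel and Myd88 have nearly the same length in all libraries.

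Other members also had lengths that changed between libraries, without a division by age. Rela was listed at 879 bases in aged replicate 2 and at 2705 to 2716 bases elsewhere, and its TPM there was 39.8, against at most 8.90 TPM in the other libraries. In CPM the same library was within the range of the others. Nfkbiz lengths spanned 506 to 3627 bases and Tnfaip3 lengths 456 to 4422 bases. Rel has a single annotated transcript and was listed at 7466 bases throughout.

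Tnfaip3 encodes A20, a ubiquitin-editing enzyme that shuts down signalling above the IkB kinase (chromosome 10, 19000910 to 19015657). Its level was 11.1, 0.186 and 0.0358 CPM in the young and 13.2, 13.7 and 40.8 CPM in the aged libraries, from 346, 5 and 1 counts and from 379, 529 and 1154 counts. Every aged library lay above every young one, but young replicate 1 came within a small step of the aged range and young replicate 3 was below the floor of 3 counts set for a single library (0.106 CPM). The log2 fold change was 2.58 (SE 1.88, 95% interval -1.63 to 6.79, edgeR adjusted p = 0.983), and 7.63 without young replicate 1 (adjusted p = 0.790). The highest level was in aged replicate 3, where neutrophil markers had the lowest sum of the 6 libraries (25.8 CPM), while the highest young level was in young replicate 1, where they had the highest (37866 CPM). Their part in the values was not tested.

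Nfkbiz encodes IkB-zeta, a nuclear IkB protein that turns on a later set of inflammatory genes (chromosome 16, 55811375 to 55838899), and its fitted value was below 0. It was at 14.8, 35.7 and 5.83 CPM in the young and 0.0347, 5.65 and 8.13 CPM in the aged libraries. Aged replicate 1 had 1 count, against 163 to 960 counts in the young libraries, and aged replicate 3 lay above young replicate 3. The log2 fold change was -2.03 (SE 1.70, 95% interval -5.84 to 1.79, edgeR adjusted p = 0.993). Without young replicate 2, the library with the highest value, it was -1.17.

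The upstream genes overlapped between the ages. Myd88, the adaptor of most Toll-like receptors (chromosome 9, 119335934 to 119341411), was at 13.8, 11.6 and 11.98 CPM in the young and 19.2, 60.8 and 11.8 CPM in the aged libraries. The young values were the most even of any member, and the aged mean of 30.6 ± 26.4 CPM (SD, n = 3) was set by aged replicate 2. The log2 fold change was 1.29 (SE 0.95, 95% interval -0.85 to 3.43, edgeR adjusted p = 0.984), and 0.32 without that library. Myd88 shares 1736 bases with Acaa1a on the opposite strand, which had more counts than Myd88 in aged replicate 1 (827 against 552), so its reads are uncertain. Ikbkb, a catalytic subunit of the IkB kinase (chromosome 8, 22659212 to 22706589), was at 34.3, 81.2 and 48.5 CPM in the young and 60.7, 27.3 and 28.6 CPM in the aged libraries. Its log2 fold change was -0.49 (SE 0.62, 95% interval -1.89 to 0.90, edgeR adjusted p = 0.993). It was -0.09 without young replicate 2 and -0.96 without aged replicate 1, the libraries with the highest value of each group, and -0.28 and -0.31 without aged replicates 2 and 3.

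The wider pathway was described with lists of genes that do not include the 10 members (a few genes stand on 2 lists), and 0 genes of any list passed the edgeR test over all genes. Of 7 other IkB genes 5 were tested, with a median log2 fold change of 0.83. The cytoplasmic inhibitors Nfkbib (2.91, SE 1.95) and Nfkbie (-0.01, SE 1.24) were at low levels, and Nfkbie was nearly the same in both groups at 10.4 ± 2.87 and 10.3 ± 0.415 CPM (SD, n = 3 each). Nkiras2, a small GTPase-like protein that binds IkB, had a log2 fold change of 2.60 (SE 1.72). On the opposite strand Nkiras2 overlaps the more abundant Dnajc7 and Nfkbib overlaps Sirt2, so both are uncertain. Sirt2 had more counts than Nfkbib in every library but aged replicate 3 (816 against 1007).

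Of 18 other feedback regulators 16 were tested, and 11 of them had fitted values above 0 (median 1.54, beside -0.02 over all genes tested). At an unadjusted p under 0.05 there were 0. Socs3, a suppressor of cytokine signalling, was at 0.0961, 0.409 and 0.107 CPM in the young and 9.31, 12.5 and 0.0707 CPM in the aged libraries, so that aged replicate 3 was as low as the young libraries. Its log2 fold change was 5.13 (SE 2.31, edgeR adjusted p = 0.883; DESeq2 adjusted p = 0.0441). Zfp36, which destabilizes cytokine mRNAs, averaged 19.0 ± 10.03 CPM at 2 months and 58.1 ± 44.9 CPM at 18 months (log2 fold change 1.61, SE 0.83). The most abundant regulators were Tax1bp1, an A20 adaptor (-0.50, SE 0.51), and Commd1, a copper-handling protein that promotes RelA turnover (-0.43, SE 0.44), which overlaps Gm28048 on the same strand.

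Kinases and adaptors lay around 0, with 25 of 30 genes tested and a median of 0.04. Ripk1, the kinase scaffold of the TNF receptor complex, was at 14.8, 17.3 and 27.1 CPM in the young and 1.36, 1.37 and 7.25 CPM in the aged libraries. Each aged value was below each young one (log2 fold change -2.57, SE 1.37, edgeR adjusted p = 0.929). Ripk1 overlaps the more abundant Serpinb6a on the opposite strand, so its reads are uncertain. Ticam2, a Toll-like receptor 4 adaptor that shares its locus with Tmed7, had a log2 fold change of 2.86 (SE 1.30), with most of its aged level in aged replicate 3 (89.2 CPM). The most abundant genes of the list were Tab2, an adaptor of the kinase TAK1 (-0.37, SE 0.54), and the kinase gene Map3k8 (-0.85, SE 0.71).

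Of 23 receptor genes 17 were tested (median 0.38), and the co-receptor Cd14 had the smallest p. Cd14, which hands lipopolysaccharide to Toll-like receptor 4, was at 133, 166 and 199 CPM in the young and 248, 587 and 415 CPM in the aged libraries. The groups did not overlap, with a log2 fold change of 1.33 (SE 0.38, edgeR adjusted p = 0.619). Its partner Ly96 (MD-2) averaged 1140 ± 256 CPM at 2 months and 571 ± 337 CPM at 18 months (SD, n = 3 each, log2 fold change -0.998, SE 0.45, adjusted p = 0.883), the opposite direction.

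Genes that NF-kB is known to switch on showed no common direction, with 26 of 35 tested, 14 fitted values above 0 and 12 below (median 0.18). The chemokine gene Ccl2 was at 266, 659 and 866 CPM in the young and 225, 109 and 139 CPM in the aged libraries, with no overlap (log2 fold change -1.92, SE 0.48, edgeR adjusted p = 0.546). Irf1, a transcription factor of the interferon response, was at 21.1 ± 8.27 and 73.5 ± 46.6 CPM (1.80, SE 0.73, adjusted p = 0.808). Bcl2a1b, a survival gene with near-identical copies, was at 273 ± 28.2 and 484 ± 161 CPM (0.83, SE 0.34, adjusted p = 0.839), and its reads are uncertain. The chemokine gene Cxcl1 had 0 counts in all libraries, and Il12b and Nos2 at most 1 count in a library.

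**Figure D4:**
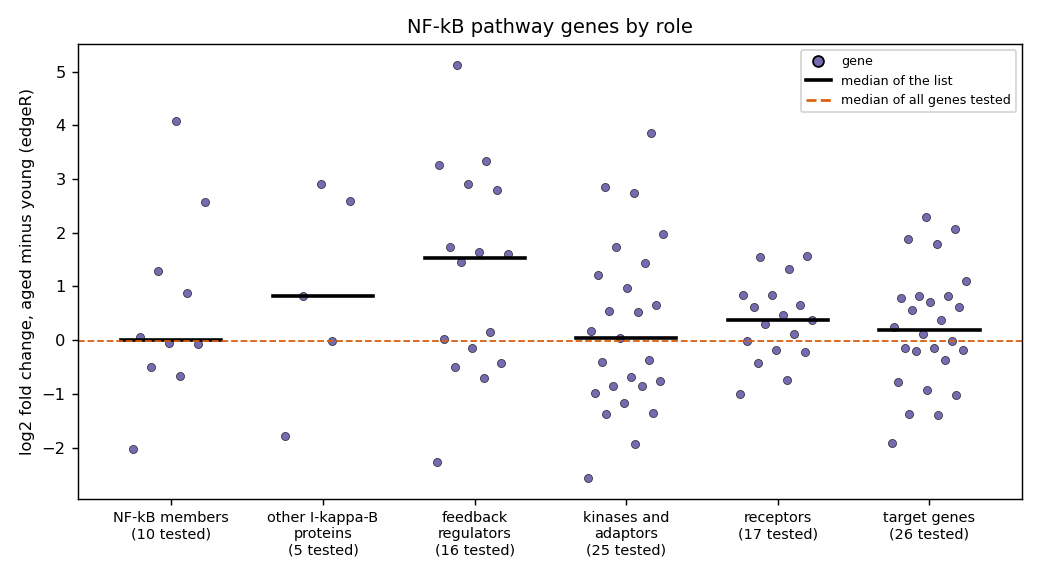
Log2 fold change (aged minus young, edgeR) of each tested gene of the 10 NF-kB members and of 5 lists of pathway genes, with the list median as a black bar and the median of all genes tested as a dashed line. Medians run from 0.01 in the members to 1.54 in the feedback regulators, and no point passed the adjusted threshold.

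Immediate early and heat-shock genes, which rise when tissue is dissociated, were measured beside the members. Their summed level was 688 to 767 CPM in young and 631 to 747 CPM in aged libraries, and 0 of 19 tested genes passed. Hsp90aa1 alone made up 272 to 564 CPM of the sum, and 11 of the 19 genes had fitted values below 0 (median -0.42). The most abundant were the chaperone gene Hsp90aa1 (366 ± 86.5 and 388 ± 154 CPM) and Ier5 (62.2 ± 17.5 and 31.5 ± 15.6 CPM). For Fos, Egr2 and Ier2 all aged values lay below all young ones (7.19% of all genes tested), and for Junb all lay above (7.54% of all genes tested). Fos, which like the other 3 was chosen for mention after its values were seen, had the smallest p of them (32.7 and 9.45 CPM on average, log2 fold change -1.79, SE 0.98, edgeR adjusted p = 0.929).

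The genes whose pattern over the 6 libraries was closest to that of Nfkbia were Rab3il1, Calr and Ptgs1. Closeness was the root mean square difference of centred log2 CPM over 6 libraries, searched among 2188 genes averaging 50 CPM or more. It was 0.13 for Rab3il1, a regulator of Rab GTPases, 0.17 for Calr, an endoplasmic reticulum chaperone, and 0.17 for Ptgs1, a cyclooxygenase. How close a match 2188 candidates would give at random was not tested. The other members averaged less than 50 CPM, where libraries scattered more, and stood outside that search. Among these members the closest was Myd88 at 0.46, and the farthest were Nfkbiz at 2.91 and Tnfaip3 at 2.95. Each of these 2 distances includes a library with 1 count of the gene, below the floor of 3.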

How the data were processed

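Bcl2fastq 2.20, FastQC, fastp, DRAGEN and Picard and the mm10 build are named per the submitters' processing notes, without their roles; the annotation is not given in the sources used here. The deposited tables hold, per the file headers, an estimated count of reads per gene (not scaled to depth), TPM (which the authors scaled to depth and to an effective length) and a transcript length in bases. Estimated counts were rounded to whole numbers. Identifiers were matched to GENCODE M21 without their version (35513 of 35598), which gave symbols and coordinates. The library kit named per the labels' protocols does not mark strand.

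Genes were filtered with filterByExpr, scaled by TMM and tested with edgeR 4.0.16 in R 4.3.3 (quasi-likelihood F test, robust dispersion, no covariate, two-sided, Benjamini-Hochberg over all genes tested, threshold 0.05). The SE was obtained from the fold change and the F statistic. A floor of 3 counts per library (0.0901 to 0.113 CPM) bounds low values and, like all counts of amplified reads, covers counting error only. Alternatives were DESeq2 1.42.0, DESeq2 size factors, limma 3.58.1 (voom, and trend on log2(TPM + 1), keeping genes whose TPM averaged 1 or more), other filters, a replicate block, leaving out each library and the bias-adjusted quasi-likelihood of edgeR, the last added after seeing the data. The edgeR test was run on simulated data in which only genes averaging 50 CPM or more were changed. Recovery of a change at lower levels, where all members but Nfkbia lie, was not tested. The members and lists were chosen with earlier results of these data known. Text names all members, the 2 most abundant and the 2 lowest-p genes of each pathway list, any called ones, the 2 most abundant immediate early genes, and the 3 genes most like Nfkbia. A gene low in all but a few libraries passes the filter through those libraries.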

Additional observations from a re-analysis of the deposited data

How the results depend on the processing

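Genes called higher (1) and lower (0) by age numbered 270 and 187 when tested with DESeq2, 51 and 11 when no low-count filter was used, 12 and 1 with the bias-adjusted quasi-likelihood (added after seeing the data) and 0 and 0 in limma-voom. Leaving out 1 library gave 0 to 2 and 0 to 1. NF-kB members called higher were 1 (Relb) in DESeq2 and 0 under the other 13 alternatives, and members called lower were 0 under all. Without 1 library both counts stayed at 0. The cause of the differences between tools was not tested.

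Signs turned for the members near 0. Nfkb2 was at 0.42 in limma-voom and 0.47 with the replicate block, Rel at -0.59, -0.016 and -0.77 in limma-voom, on TPM and with the block, and Rela at 0.47, 1.014 and 0.45. Leaving out 1 library gave -0.57 to 1.22 for Nfkb2, -1.67 to 0.55 for Rel and -0.59 to 0.71 for Rela. Of the other pathway genes, Nfkbie was at 0.025 in limma-voom, 0.16 on TPM, 0.012 with no filter and 0.019 with the block, and at -0.15 to 0.24 without 1 library. Tab2 was at 0.065 on TPM and -0.59 to 0.049 without 1 library, and Hsp90aa1 at -0.28 to 0.27. Relb, Nfkbia, Nfkbiz, Tnfaip3, Myd88, Nfkb1 and Ikbkb kept their sign under every alternative that gave a value. Socs3 was called in DESeq2 (5.13) and Ccl2 with no filter (-1.89).

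No pairing by replicate number was seen. Deviations from the group means correlated at -0.00970, -0.0257 and 0.0220 for the same-numbered pairs and at -0.0232 to 0.0320 for the others. The replicate block changed no call of a member. These values cannot show that no batch was shared. The low-level members are limited by depth and scatter: Nfkb2, Relb, Nfkbiz and Tnfaip3 each had at least 1 library with 5 counts or fewer.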

Other observations

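The reported length of Nfkbia was the clearest division by age among the members, and it was chosen for mention after its values were seen. GENCODE M21 lists 2 Nfkbia transcripts, a protein-coding one of 1578 bases and a retained-intron one of 701 bases. Were the reported length an abundance-weighted mean of these 2 transcripts, the short one would make up 13.7% to 19.5% of Nfkbia transcripts in the young and 56.7% to 62.8% in the aged libraries. The tables give no counts per transcript, so this share was not measured.

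The same tables listed Rela at a short length in aged replicate 2 only (879 bases, with 7 annotated transcripts of 311 to 2716 bases). The TPM of Nfkbia and Rela therefore moves with the length assigned to the gene as well as with its reads, and their CPM does not.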
